A study of Mus musculus with 30 samples.

Results

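The comparison set the wild type olfactory epithelium of mice at 8 h against the same tissue at 2 h, in a series that followed the epithelium after bilateral olfactory bulbectomy, the removal of both olfactory bulbs. Its members were chosen by array title alone, and they were 3 arrays titled 8 hpO and 3 titled 2 hpO of the 30 arrays in the series. The mice were 6 weeks old and wild type, and total RNA of microdissected olfactory epithelium was labelled with biotin and hybridised to Affymetrix MG-U74Av2 arrays. The labels do not spell out "hpO", do not name a mouse strain, and do not say whether a mouse of its own stood behind each array. The p-values therefore rest on variation among arrays that may be technical replicates. The other arrays of the fit were wild type at 0, 16 and 48 h and SR-A mutant at 0, 8, 16 and 48 h, where SR-A is scavenger receptor A of macrophages, the product of Msr1. The question addressed is which transcripts differed between an early and a later hour after the operation. The 0 h arrays do not enter this difference, although they helped to set the spread and the filter on low signals.

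Olfactory sensory neurons lie in a pseudostratified epithelium of the nasal cavity and send their axons to the olfactory bulb. Removing the bulb cuts those axons and takes away their target, after which mature neurons die and basal stem cells replace them. Around them stand supporting cells rich in detoxifying enzymes, secretory glands, basal cells and resident macrophages, and blood leukocytes can enter from the underlying lamina propria. Injured epithelia are known for an early burst of immediate early transcription factors, followed by cytokine signals and by secreted defence proteins.

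All 6 arrays carried the tissue's defining marker. Omp, the olfactory marker protein of mature sensory neurons, had signals of 34453, 26603 and 29682 at 8 h, against 29564, 28659 and 30467 at 2 h. These are MAS5 signal units, a linear intensity scaled to the same trimmed mean on every array. Over 15 tested genes of mature sensory neurons the summed signal ranged from 167798 to 169883 at 8 h and from 168472 to 177694 at 2 h. Since whole tissue was measured, fewer cells of a type and less RNA per cell cannot be told apart. Msr1 was dim, at 76.3 ± 36.9 at 8 h against 71.6 ± 16.1 at 2 h for one probe set and 131 ± 46 against 148 ± 20.2 for the other (SD, n = 3 each), too low to be tested. The 3 SR-A mutant 2 h arrays were left out of the fit because their Gapdh control probe sets differed between the 3′ and 5′ ends by 0.15 to 5.59 on the log2 scale, against -0.31 to -0.13 in the other 27 arrays.

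Over the called probe sets, replicate 3 of the 8 h group lay near the 2 h arrays more often than the other 2 arrays of its group. It lay nearest to the 2 h arrays in 42 of the 63 probe sets that rose and in 23 of the 42 that fell, whereas replicate 1 did so in 5 and 3 of them, and replicate 2 in 16 and 16. Its median distance from the 2 h mean was 0.57 over the rises, against 0.91 and 0.84 for replicates 1 and 2 (log2). Over the falls the medians were -0.50 for replicate 3 and -0.63 and -0.52 for replicates 1 and 2. Its Gapdh difference of -0.31 and its actin difference of 0.70 between 3′ and 5′ ends lay within the range of the other arrays. The counts and medians above rest on probe sets called with these same arrays. Over all probe sets tested, replicate 3 correlated with replicates 1 and 2 at 0.96 and 0.962, beside 0.97 between those 2 (Pearson, log2). With the 2 h arrays, replicate 1 correlated least (0.957 to 0.961, beside 0.964 to 0.97 and 0.965 to 0.968 for replicates 2 and 3). The part of tissue sampling, timing or handling in the gap of replicate 3 was not tested. Results are given with and without replicate 3 where it moved them, a choice made after its values were seen.

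Of 6968 probe sets tested, 105 (1.51%) differed between 8 h and 2 h at a Benjamini-Hochberg adjusted p under 0.05 in limma, and 1178 had an unadjusted p under that value. At 8 h 63 probe sets (0.904%) were higher and 42 (0.603%) were lower. The rises stood for 51 genes and 7 probe sets with no gene name, and the falls for 38 genes, 3 probe sets with several genes and 1 with none. Rises reached further than falls, with log2 differences of 0.35 to 2.48 against falls of 0.34 to 1.70 in size, and 19 rises but 6 falls exceeded 2-fold. The 3 arrays at 8 h did not overlap the 3 at 2 h in 62 of the 63 rises, a pattern seen upward in 11.3% of all probe sets tested, and in all 42 falls, a pattern seen downward in 12.1%. Below, each difference is 8 h minus 2 h on the log2 scale ± its standard error, with 3 arrays a group, and each adjusted p is limma's over all probe sets tested.

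**Figure D1:**
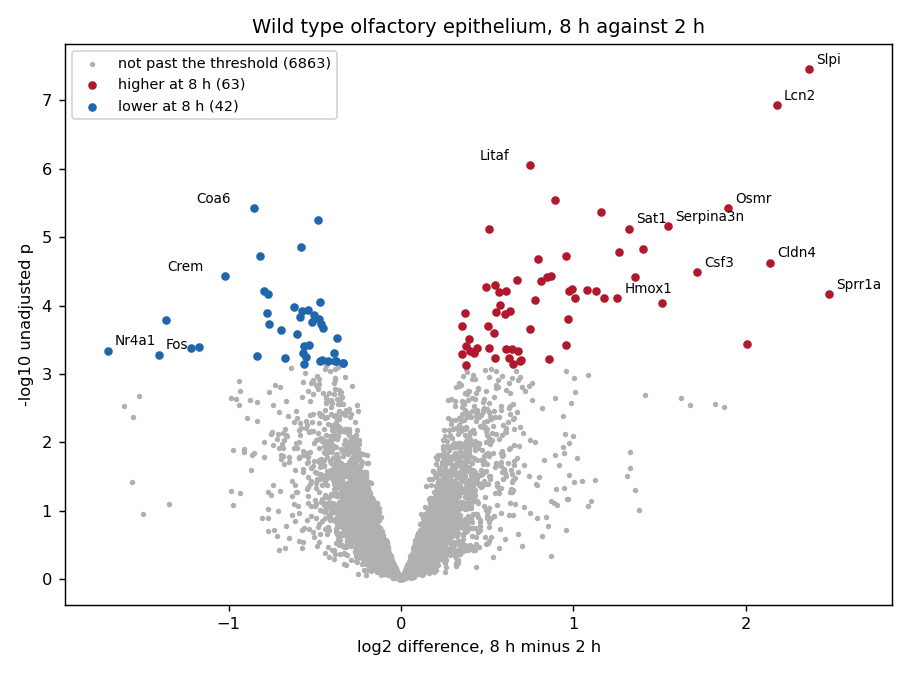
Each point is 1 of the 6968 probe sets tested, placed by its log2 difference, 8 h minus 2 h (horizontal axis), and by -log10 of its unadjusted p from limma (vertical axis); red points were higher at 8 h (63) and blue points lower (42) at an adjusted p under 0.05. The red points reach 2.48 (Sprr1a) and the blue points -1.70 (Nr4a1), and Slpi and Lcn2 stand highest.

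The number of calls rested on the array set. Without 8 h replicate 3 the count was 188, of which 87 were among the 105, and without 8 h replicate 1 it was 10, all among the 105. Without 8 h replicate 2 it was 55, and without 2 h replicate 1, 2 or 3 it was 41, 30 or 40. With the spread estimated from the 15 wild type arrays 25 probe sets passed, 23 of them among the 105. From the 6 arrays alone 2 passed, 1 of them among the 105. Both of these fits keep each difference of 8 h minus 2 h as it was and change only its spread. The 10 probe sets that passed in every fit leaving out 1 array were those of Slpi (the dimmer of its probe sets), Lcn2, Osmr, Ndrg1, Plat, Plscr1, Psmd11 and Litaf, which were higher at 8 h, and of Coa6 and Sem1, which were lower. Plscr1, Psmd11, Litaf and Sem1 were singled out after their values were seen.

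**Figure D2:**
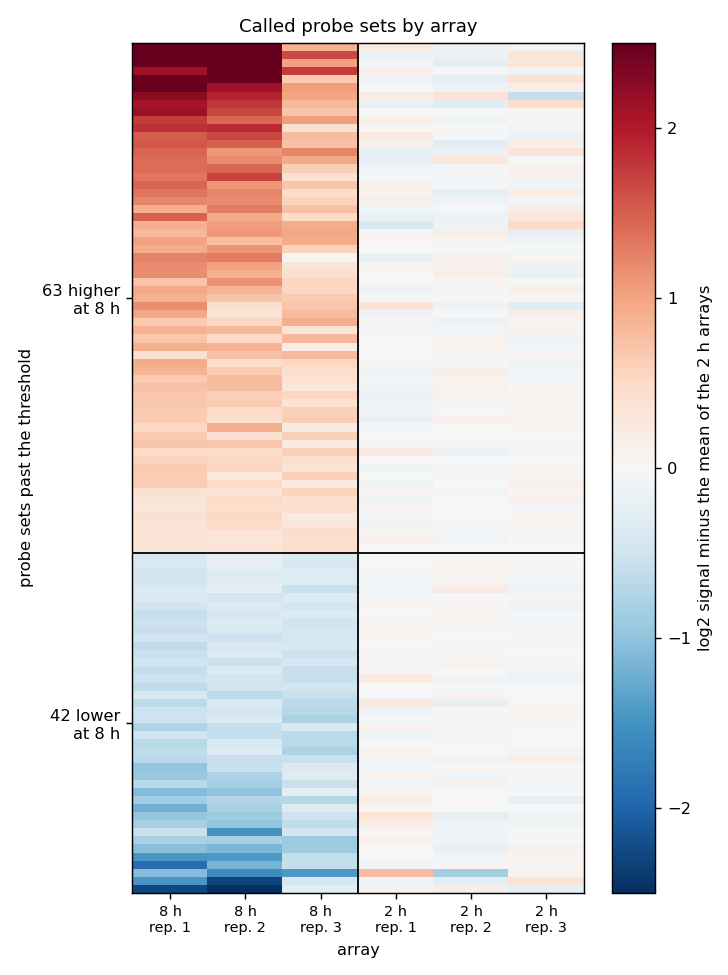
Rows are the 105 probe sets past the threshold, ordered by difference, and columns are the 3 arrays at 8 h and the 3 at 2 h; colour gives the log2 signal minus the mean of the 2 h arrays, with the darkest shades standing for 2.5 or more. The first and second 8 h columns are darker than replicate 3, whose median is 0.57 over the rises against 0.91 and 0.84, while the 2 h columns stay near 0.

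Sprr1a, the gene with the largest rise, is one of the listed genes that injured or stressed epithelia express, of which 5 of 25 tested genes rose and 0 fell, a share of 20% beside 0.89% of all 5396 genes. Their median difference was 0.21, against -0.01 over all genes. This list and the others were made with earlier results of these data known, so the shares of every list are descriptions only. Sprr1a, a small proline-rich protein of the cornified envelope that is also known from regrowing injured neurons, had signals of 4942, 4177 and 845 at 8 h, against 538, 418 and 443 at 2 h. Replicates 1 and 2 at 8 h stood far above every 2 h array, replicate 3 only a little. The difference was 2.48 ± 0.51 (adjusted p = 0.0133), and 3.29 (adjusted p = 0.000106) without 8 h replicate 3. Sprr1a passed in 2 of the 6 fits that left out 1 array, with adjusted p-values up to 0.103. Cldn4, a tight junction claudin, had 4915, 6538 and 3784 at 8 h, against 1224, 1101 and 1055 at 2 h, with no overlap and all 8 h arrays high. Its difference was 2.14 ± 0.40 (adjusted p = 0.00914), and among the 6 fits leaving out 1 array it missed the threshold without 8 h replicate 1 (adjusted p = 0.0531).

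The promoters of these 2 genes are shown because both hold the AP-1 motif TGAGTCA, the site known to bind Fos and Jun family dimers, and because the Fos transcript is among the falls described further on. The sequences are the 250 bases before each gene's start in the RefSeq annotation of GRCm38.p6, 5′ to 3′ on the gene's strand, with TGAGTCA or its other-strand form TGACTCA in capitals. Sprr1a's window is chr3:92485882-92486131 and Cldn4's is chr5:134946935-134947184, both on the minus strand.
Sprr1a: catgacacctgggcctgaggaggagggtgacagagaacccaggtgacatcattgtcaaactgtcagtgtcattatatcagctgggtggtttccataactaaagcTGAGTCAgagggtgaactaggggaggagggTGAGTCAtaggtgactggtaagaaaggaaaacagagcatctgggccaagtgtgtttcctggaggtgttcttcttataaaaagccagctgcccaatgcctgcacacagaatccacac
Cldn4: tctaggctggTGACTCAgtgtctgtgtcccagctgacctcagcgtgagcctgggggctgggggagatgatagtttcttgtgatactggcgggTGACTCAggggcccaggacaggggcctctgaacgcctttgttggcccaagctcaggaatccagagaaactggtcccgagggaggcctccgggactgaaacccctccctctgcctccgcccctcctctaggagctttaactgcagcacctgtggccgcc
Each window held 2 matches, starting 146 and 116 bases before the Sprr1a start and 240 and 158 bases before the Cldn4 start. A promoter was found for 41 of the 51 genes that rose, and 4 of those (9.76%), Sprr1a, Cldn4, Glrx and Srxn1, held the motif. Among the genes that fell it was in 1 of 29 promoters (3.45%), and among all genes tested in 190 of 4369 (4.35%). A match describes letters and not binding.

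Anxa1, Sat1 and Plat were the other 3 epithelial injury genes that rose. Anxa1, a phospholipid-binding protein that restrains leukocyte entry, rose on all 3 of its probe sets, by 1.36 ± 0.26 (adjusted p = 0.0118), 0.85 ± 0.16 (adjusted p = 0.0118) and 0.81 ± 0.16 (adjusted p = 0.0121). The brightest of them had 31022, 27223 and 17295 at 8 h, against 13883, 14591 and 12380 at 2 h. Every 8 h array was above every 2 h array, replicate 3 by the least, and the 3 probe sets passed in 4, 4 and 3 of the 6 fits leaving out 1 array, failing without 8 h replicate 1 each time (adjusted p = 0.0878). Sat1, which acetylates spermidine and spermine, had 11306, 12460 and 6757 at 8 h, against 4557, 3823 and 3500 at 2 h, a difference of 1.32 ± 0.23 (adjusted p = 0.00476) that missed the threshold without 8 h replicate 1 (adjusted p = 0.0529). It was also the only one of 5 tested polyamine genes past the threshold (20% beside 0.89% of all genes that rose). Plat, the tissue-type plasminogen activator, had 12189, 14850 and 13729 at 8 h, against 7217, 7752 and 6094 at 2 h. Here replicate 3 at 8 h was as high as the others, the difference was 0.96 ± 0.18 (adjusted p = 0.00825), and the gene passed in all 6 fits leaving out 1 array. Sprr2f, a relative of Sprr1a, averaged 462.8 at 8 h and 117.1 at 2 h but did not pass (adjusted p = 0.0882), although with the spread from the 6 arrays alone it and Cldn4 were the 2 listed genes that passed. Krt6a, a wound keratin, had a difference of 0.91 on its brighter probe set (adjusted p = 0.363).

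A few secreted defence genes were among the largest rises. Of 17 tested acute phase and epithelial defence genes 3 rose and 0 fell (17.6% beside 0.89% of all genes), with a median of 0.36 and 5 negative differences. Slpi, an inhibitor of leukocyte serine proteases, had signals of 4308, 4413 and 2081 at 8 h, against 589, 600 and 821 at 2 h, a difference of 2.36 ± 0.29 (adjusted p = 0.000247). No array overlapped, and replicate 3 at 8 h was again the lowest of its group. Its other probe set, which was brighter on average, rose less, by 0.78 ± 0.16 (adjusted p = 0.0144), and missed the threshold without 8 h replicate 1 or 2 or 2 h replicate 1 or 2 (adjusted p up to 0.102). Lcn2, a lipocalin that binds bacterial iron carriers, had 19246, 18944 and 5809 at 8 h, against 2742, 2416 and 3441 at 2 h. Its difference was 2.18 ± 0.28 (adjusted p = 0.000409), and 2.75 (adjusted p = 7.91e-10) without 8 h replicate 3. A dimmer Lcn2 probe set gave 0.49 ± 0.19 and did not pass (adjusted p = 0.175). Serpina3n, a secreted serine protease inhibitor, had 29484, 24279 and 12341 at 8 h, against 6322, 5856 and 9583 at 2 h, a difference of 1.55 ± 0.26 (adjusted p = 0.00476). The lowest 8 h array and the highest 2 h array of Serpina3n lay close together, and both were replicate 3. Without 8 h replicate 1 it missed the threshold (adjusted p = 0.0531). Clu, a secreted chaperone that also inhibits complement, rose on both probe sets, by 1.26 ± 0.23 (adjusted p = 0.00823) and 1.01 ± 0.21 (adjusted p = 0.014), as the 1 gene of 10 tested complement genes that passed (10% beside 0.89% of all genes that rose). These calls held in 4 and 3 of the 6 fits leaving out 1 array.

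Lcn2 is also a neutrophil granule gene, so the neutrophil list is given beside it. Of 11 tested neutrophil genes Lcn2 was the only one past the threshold (9.09% beside 0.89% of all genes that rose), and the median of the list was -0.17. Of the 11 differences 4 were positive and 7 negative. In limma 2 of the genes had an unadjusted p under 0.05, both higher at 8 h, beside 909 of all 5396 genes in either direction. The summed signal of the list was 54093 to 72672 at 8 h and 37967 to 45414 at 2 h, sums in which Lcn2 is included. S100a8 and S100a9, which neutrophils hold in abundance, averaged 2930.2 and 2013.5 at 8 h, against 3277.3 and 2266.3 at 2 h, with differences of -0.17 (adjusted p = 0.865) and -0.19 (adjusted p = 0.863). Ngp, a granule protein of young neutrophils, averaged 141.8 at 8 h and 539.5 at 2 h (difference -1.50, adjusted p = 0.413). Ltf and Chil3, also on the list, had positive differences of 0.47 and 0.26. The neutrophil genes other than Lcn2 thus gave no call in either direction.

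Cytokine genes followed, with 3 of 24 tested genes higher at 8 h and 0 lower (12.5% beside 0.89% of all genes) and a median of 0.10. Osmr, the oncostatin M receptor subunit that pairs with gp130, had 3137, 2292 and 1115 at 8 h, against 526, 493 and 602 at 2 h. All 8 h arrays were above the 2 h arrays and were spread widely, with replicate 1 the highest and replicate 3 the lowest. The difference was 1.89 ± 0.31 (adjusted p = 0.00425), it was past the threshold whichever array was left out, and it was 2.32 without 8 h replicate 3. Csf3, granulocyte colony-stimulating factor, had 2915, 2317 and 1209 at 8 h, against 705, 790 and 413 at 2 h, a difference of 1.72 ± 0.33 (adjusted p = 0.0118). It passed in 4 of the 6 fits that left out 1 array, with adjusted p-values up to 0.0878. Tnfrsf1a, the main receptor for tumour necrosis factor, had 2075, 2154 and 1524 at 8 h, against 1138, 1317 and 1289 at 2 h, a smaller difference of 0.61 ± 0.12 (adjusted p = 0.0129) that passed in 3 of those 6 fits.

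Other cytokine pathway genes gave mixed values, with 9 of the 24 differences negative. Il6 and Socs3, a cytokine that signals through gp130 and the feedback inhibitor of that pathway, averaged 637.3 and 1541.6 at 8 h, against 312.9 and 940.4 at 2 h (adjusted p = 0.138 and 0.13, for Socs3 on its brighter probe set). Stat3, the transcription factor downstream of gp130, had 4480, 3796 and 4384 at 8 h, against 2515, 3074 and 3050 at 2 h, on a probe set singled out after its values were seen. That probe set rose by 0.55 ± 0.12 (adjusted p = 0.0179), whereas the brighter Stat3 probe set gave 0.41 ± 0.14 (adjusted p = 0.125). Among 8 tested chemokines Ccl22, a ligand of CCR4, was the only one that passed (12.5% beside 0.89% of all genes that rose). Ccl22 had 1081, 690 and 954 at 8 h, against 516, 529 and 610 at 2 h (0.70 ± 0.17, adjusted p = 0.0454), and it passed in 1 of the 6 fits leaving out 1 array. Ccl2, which draws monocytes, had 418, 778 and 518 at 8 h, against 422, 118 and 178 at 2 h. Its groups overlapped at 418 and 422, and its difference of 1.42 ± 0.40 did not pass (adjusted p = 0.0767). Cxcl1 and Cxcl2, which draw neutrophils, had differences of 0.96 (adjusted p = 0.338) and 1.62 (adjusted p = 0.0811). Bcl3, a nuclear partner of NF-kappaB, had 1197, 545 and 669 at 8 h, against 116, 528 and 218 at 2 h (1.68 ± 0.50, adjusted p = 0.0859). Of the 18 tested NF-kappaB and TNF pathway genes, Bcl3 among them, 0 passed in limma (4 at an unadjusted p under 0.05, beside 909 of all 5396 genes), 7 differences were negative and the median was 0.11. Litaf, an endosomal protein first described as induced by lipopolysaccharide, had 3151, 2780 and 2681 at 8 h, against 1656, 1695 and 1761 at 2 h. Those groups were tight and far apart, and Litaf rose by 0.75 ± 0.11 (adjusted p = 0.00206).

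The next list joined xenobiotic and antioxidant enzymes, cytochromes P450 included, and 3 of its 37 tested genes, all antioxidant, rose and 0 fell (8.11% beside 0.89% of all genes). Of the 37, 13 had all 8 h arrays above all 2 h arrays, a pattern found in 10.8% of all genes, and 2 had them all below, a pattern found in 12.5%. Hmox1, which breaks down heme, had 27311, 20946 and 23058 at 8 h, against 8834, 8934 and 12327 at 2 h, a difference of 1.25 ± 0.26 (adjusted p = 0.014). All 3 arrays at 8 h were high, replicate 3 included. Hmox1 was the only one of 19 tested macrophage genes that passed, a share of 5.26% that rose beside 0.89% of all genes. Cd68, a macrophage lysosomal protein, had 1247, 933 and 1019 at 8 h, against 1173, 933 and 939 at 2 h (0.07 ± 0.16, adjusted p = 0.878). The summed signal of the macrophage list, Hmox1 included, was 49742 to 68625 at 8 h and 40848 to 42719 at 2 h. Srxn1, sulfiredoxin, which repairs overoxidised peroxiredoxins, had 3954, 4351 and 3988 at 8 h, against 1617, 1930 and 2989 at 2 h. The 8 h arrays were close together and the 2 h arrays were spread, with 2 h replicate 3 the nearest. The difference was 0.96 ± 0.23 (adjusted p = 0.0373), and a dim Srxn1 probe set gave 0.29 ± 0.15 (adjusted p = 0.343). Txnrd1, thioredoxin reductase, had 8330, 9423 and 8707 at 8 h, against 6197, 6649 and 7223 at 2 h, and rose by 0.40 ± 0.10 (adjusted p = 0.0391). Gclm and Gclc, the subunits of the enzyme that begins glutathione synthesis, had differences of 0.69 (adjusted p = 0.0608) and 0.67 (adjusted p = 0.0967) and did not pass. Gss, which completes glutathione, and Sqstm1, an autophagy receptor, were singled out after their values were seen and rose by 0.68 ± 0.16 (adjusted p = 0.0391) and 0.50 ± 0.11 (adjusted p = 0.0228). Cyp1a1, a dioxin-inducible cytochrome P450, went the other way, averaging 1159.4 at 8 h and 3128.4 at 2 h (-1.61 ± 0.48, adjusted p = 0.0871). Hmox1, Srxn1 and Txnrd1 passed in 3, 2 and 1 of the 6 fits that left out 1 array, and Gss and Sqstm1 in 1 each, the one without 8 h replicate 3.

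Srxn1's promoter is shown as that of the antioxidant gene that held the AP-1 letters, which lie inside longer elements known to bind Nrf2 in some antioxidant genes. It spans chr2:152105274-152105523 on the plus strand of GRCm38.p6 in RefSeq, with TGAGTCA in capitals, at 102 and 45 bases before the gene's start.
Srxn1: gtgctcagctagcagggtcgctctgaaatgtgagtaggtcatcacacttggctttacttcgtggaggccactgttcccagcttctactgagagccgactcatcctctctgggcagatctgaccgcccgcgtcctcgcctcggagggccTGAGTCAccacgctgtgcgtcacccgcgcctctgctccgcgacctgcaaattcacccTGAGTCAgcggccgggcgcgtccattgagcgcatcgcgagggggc

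Among the other rises were genes of glucose supply, amino acid synthesis, proteolysis and hormone response. Ndrg1, which responds to hypoxia in many cells, had 11130, 11578 and 6460 at 8 h, against 3990, 4104 and 4550 at 2 h, and rose by 1.16 ± 0.19 (adjusted p = 0.00425). A second Ndrg1 probe set rose by 0.86 ± 0.21 (adjusted p = 0.0454), and there 8 h replicate 3, at 4822, fell inside the 2 h range. Slc2a1, the glucose transporter GLUT1, had 4567, 5808 and 2347 at 8 h, against 1745, 1734 and 1964 at 2 h. 8 h replicate 3 was again close to the 2 h arrays, and the difference of 1.13 ± 0.23 (adjusted p = 0.0129) was 1.51 without that array. It passed in 2 of the 6 fits leaving out 1 array and missed the threshold without 8 h replicate 1 (adjusted p = 0.0878). Ndrg1 and Slc2a1 were the 2 of 19 tested glycolysis and hypoxia genes that rose (10.5% beside 0.89% of all genes), beside a list median of 0.06, and none of the glycolytic enzymes on it passed. Glrx, glutaredoxin, rose by 0.99 ± 0.20 (adjusted p = 0.0129), and Ctsl, the lysosomal protease cathepsin L, by 0.87 ± 0.17 (adjusted p = 0.0118) as the only call among 27 lysosomal genes (3.7% beside 0.89% of all genes that rose). Asns, asparagine synthetase, had 13976, 11966 and 10233 at 8 h, against 7089, 8714 and 7553 at 2 h (0.62 ± 0.16, adjusted p = 0.0445). Fkbp5, an immunophilin that glucocorticoids induce, had 3434, 4412 and 3017 at 8 h, against 1678, 1787 and 2010 at 2 h. It rose by 0.97 ± 0.20 (adjusted p = 0.0129) as the 1 call among 18 tested glucocorticoid responsive genes (5.56% beside 0.89% of all genes that rose), and passed in 2 of the 6 fits that left out 1 array. Plscr1, a phospholipid scramblase that interferons induce, was singled out after its values were seen. It had 3951, 3337 and 3781 at 8 h, against 2036, 2072 and 1840 at 2 h, with no array apart from its group (0.89 ± 0.14, adjusted p = 0.00425). Smaller rises were those of the translation regulators Eif4ebp1 (0.65 ± 0.17, adjusted p = 0.0472) and Eif1a (0.36 ± 0.09, adjusted p = 0.0414), of Casp2, an initiator caspase (0.37 ± 0.08, adjusted p = 0.0181), and of Lef1, a Wnt pathway factor (0.51 ± 0.12, adjusted p = 0.0379). Of the 6 fits leaving out 1 array Ctsl passed in 4, Glrx and Casp2 in 2, Asns, Eif4ebp1 and Lef1 in 1 and Eif1a in 0, where its adjusted p reached 0.16.

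The 2 largest falls, those of Nr4a1 and Fos, were of immediate early genes. Immediate early genes are switched on within minutes of a stimulus from factors already present in the cell. Of 24 tested members 2 fell (8.33% beside 0.686% of all genes) and 2 rose (8.33% beside 0.89%), and the median was -0.22. Nr4a1, an orphan nuclear receptor, had 929, 750 and 3740 at 8 h, against 4776, 4964 and 3776 at 2 h. 8 h replicate 3 was at the level of the 2 h arrays, just below the lowest of them, while the other 2 were several fold lower. The difference was -1.70 ± 0.41 (adjusted p = 0.0391), -2.42 (adjusted p = 0.000106) without 8 h replicate 3, and past the threshold in 1 of the 6 fits that left out 1 array. Fos, a subunit of AP-1, had 1534, 844 and 3104 at 8 h, against 3897, 3607 and 5298 at 2 h, a difference of -1.40 ± 0.35 (adjusted p = 0.0421) and of -1.89 without 8 h replicate 3, the only 1 of the 6 fits leaving out 1 array in which it passed (adjusted p up to 0.151 in the rest). Neither Nr4a1 nor Fos passed without the filter on low signals or with the replicate number as a block. The same held with the spread from the 15 wild type arrays or from the 6 arrays alone. Both passed with other floors, quantile normalization, all 30 arrays and robust moderation. Egr1, a zinc finger factor, had 1179, 946 and 1397 at 8 h, against 1865, 2522 and 2414 at 2 h. Its arrays did not overlap, and it did not pass (-0.96 ± 0.28, adjusted p = 0.0816).

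Crem, the cyclic AMP responsive element modulator, which encodes both activators and the inducible repressor ICER, had 261, 245 and 290 at 8 h, against 557, 478 and 582 at 2 h. Both groups were tight, replicate 3 did not stand out, and the difference was -1.02 ± 0.20 (adjusted p = 0.0118). These signals are low: only 1 of the 6 arrays exceeded 572, the median of the pooled signals. Crem entered testing through arrays outside the comparison and was not tested with the filter over the 6 arrays. Rgs2, which shortens signals of G protein-coupled receptors, had 1178, 1292 and 1311 at 8 h, against 2449, 2144 and 1879 at 2 h (-0.77 ± 0.16, adjusted p = 0.0133). Dusp6 and Btg1, the members that rose, are a phosphatase of ERK kinases and a restrainer of proliferation. Dusp6 had 5464, 5425 and 3827 at 8 h, against 3230, 3512 and 3274 at 2 h (0.54 ± 0.12, adjusted p = 0.0271). Btg1 had 5788, 5516 and 5174 at 8 h, against 3851, 3886 and 3840 at 2 h (0.51 ± 0.09, adjusted p = 0.00476). Of the 6 fits leaving out 1 array Btg1 passed in 5, Crem in 4, Rgs2 in 3 and Dusp6 in 1, and without 8 h replicate 1 the adjusted p was 0.0601 for Crem and 0.0878 for Rgs2. Of the 24 genes 7 had all 8 h arrays below all 2 h arrays and 5 had them all above, beside 12.5% and 10.8% of all genes. Per1, which glucocorticoids and cyclic AMP also induce, had 763, 831 and 2751 at 8 h, against 2029, 2049 and 2094 at 2 h, and did not pass (-0.77 ± 0.38, adjusted p = 0.302). Without 8 h replicate 3, the one array above the 2 h range, the Per1 difference was -1.37 and passed (adjusted p = 0.0223).

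The promoters of Fos, Nr4a1 and Rgs2 are shown because they share the letters TGACG, the first bases of the cyclic AMP response element TGACGTCA. The windows are chr12:85473640-85473889 (plus strand) for Fos, chr15:101266596-101266845 (plus strand) for Nr4a1 and chr1:144004150-144004399 (minus strand) for Rgs2, from RefSeq on GRCm38.p6, 5′ to 3′ on the gene's strand, with TGACG or its other-strand form CGTCA in capitals.
Fos: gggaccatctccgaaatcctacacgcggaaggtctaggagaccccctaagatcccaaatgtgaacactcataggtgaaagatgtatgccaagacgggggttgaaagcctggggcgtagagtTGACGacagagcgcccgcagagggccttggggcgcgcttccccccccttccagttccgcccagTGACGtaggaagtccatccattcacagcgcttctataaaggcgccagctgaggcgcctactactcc
Nr4a1: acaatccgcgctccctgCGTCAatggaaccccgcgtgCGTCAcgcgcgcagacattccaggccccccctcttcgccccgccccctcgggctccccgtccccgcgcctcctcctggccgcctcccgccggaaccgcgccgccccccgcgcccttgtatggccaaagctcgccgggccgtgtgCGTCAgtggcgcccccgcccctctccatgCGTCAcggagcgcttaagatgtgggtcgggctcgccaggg
Rgs2: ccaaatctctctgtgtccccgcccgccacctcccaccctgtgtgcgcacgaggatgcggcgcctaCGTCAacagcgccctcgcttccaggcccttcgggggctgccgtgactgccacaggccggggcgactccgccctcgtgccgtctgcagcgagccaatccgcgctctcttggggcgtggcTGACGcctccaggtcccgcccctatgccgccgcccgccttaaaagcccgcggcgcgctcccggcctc
Nr4a1 held 4 matches, and Fos and Rgs2 held 2 each. The nearest to the gene's start lay 40 bases before it in Nr4a1, 66 in Fos and 67 in Rgs2. This short search was added after the data were seen. It matched 11 of the 29 promoters found for genes that fell (37.9%), 6 of 41 for genes that rose (14.6%) and 1378 of 4369 for all genes tested (31.5%). The full TGACGTCA was in 1 of 29 (3.45%), 1 of 41 (2.44%) and 130 of 4369 (2.98%).

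**Figure D3:**
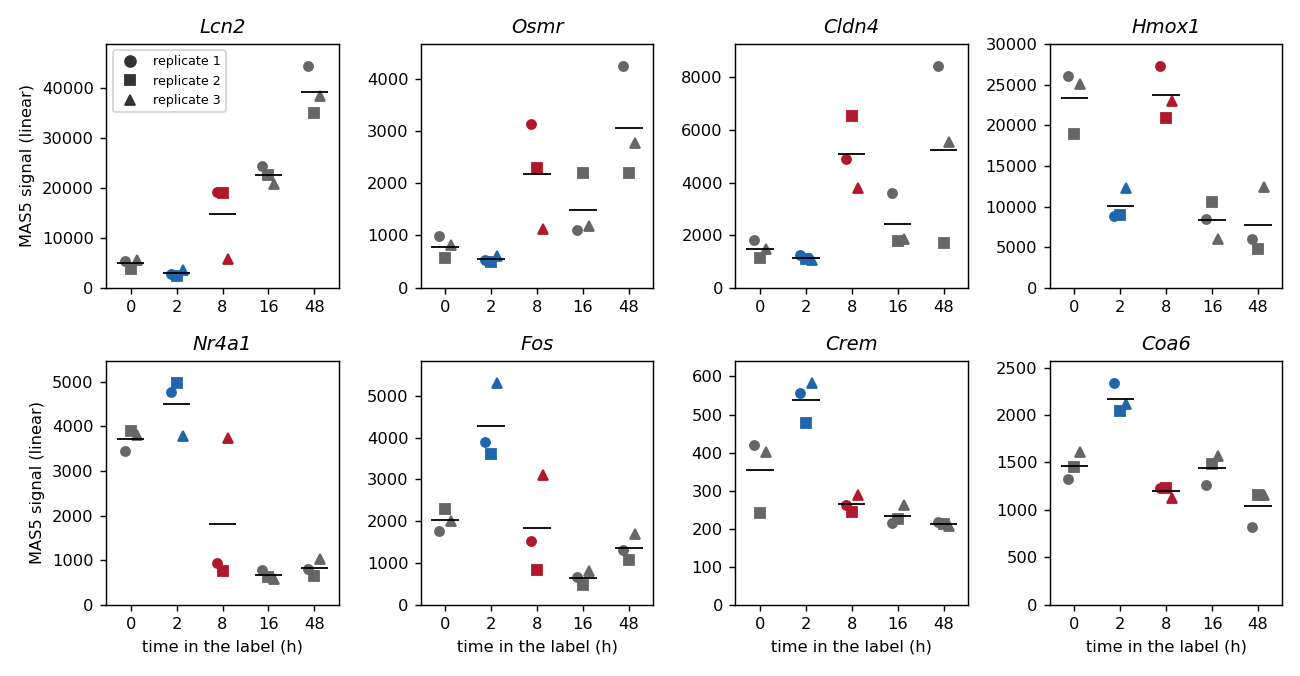
MAS5 signal (linear, vertical axis) of 8 genes in each of the 15 wild type arrays, by the time in the label (0, 2, 8, 16 and 48 h, horizontal axis); symbols give the replicate, red marks 8 h, blue 2 h, and lines are means of 3 arrays. Replicate 3 at 8 h (triangle) is the 8 h array nearest to 2 h for Lcn2, Osmr, Cldn4, Nr4a1, Fos and Crem but not for Hmox1 or Coa6.

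Mean signals at the other wild type times placed these genes on different courses. Lcn2 averaged 4856 ± 1013, 2866 ± 523, 14666 ± 7672, 22630 ± 1779 and 39290 ± 4770 at 0, 2, 8, 16 and 48 h (SD, n = 3 each). It was lowest at 2 h and highest at 48 h, as was Slpi, with 1147 ± 142, 670 ± 131, 3600 ± 1317, 3815 ± 1560 and 12327 ± 3512. Csf3 was highest at 8 h, with 706 ± 172, 636 ± 198, 2147 ± 865, 706 ± 114 and 1198 ± 245. Hmox1 averaged 23330 ± 3867, 10032 ± 1988, 23771 ± 3242, 8323 ± 2319 and 7758 ± 4125 over the 5 times. It was thus high at 0 h and at 8 h and lower at the other 3 times, and the same held for Srxn1, with 5205 ± 981, 2179 ± 719, 4098 ± 220, 2215 ± 528 and 2057 ± 292. For Hmox1 the fitted differences were -1.22 for 2 h minus 0 h (adjusted p = 0.0258) and 0.03 for 8 h minus 0 h (adjusted p = 0.985), contrasts that share arrays with 8 h minus 2 h. For Srxn1 they were -1.29 (adjusted p = 0.0115) and -0.33 (adjusted p = 0.691), and for Fkbp5 -1.10 (adjusted p = 0.0118) and -0.12 (adjusted p = 0.892). Fos was highest at 2 h, with 2017 ± 271, 4267 ± 905, 1827 ± 1158, 647 ± 161 and 1362 ± 311, and so was Crem, with 354 ± 98.6, 539 ± 54.6, 265 ± 22.7, 233 ± 24.5 and 212 ± 5.45. Nr4a1 was as high at 0 h (3723 ± 235) as in 8 h replicate 3, and lay at 663 ± 101 and 826 ± 196 at 16 and 48 h.

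The other large falls were of genes with varied functions. Car3, carbonic anhydrase 3, had 382, 272 and 298 at 8 h, against 1382, 444 and 859 at 2 h. The 2 h arrays were spread widely, and the difference was -1.36 ± 0.30 (adjusted p = 0.0203). All 3 arrays of Car3 at 8 h and 1 at 2 h lay below the pooled median signal of 572, so Car3 was not tested with the filter over the 6 arrays. Ect2, a gene needed for cell division, had 454, 767 and 1135 at 8 h, against 1626, 1743 and 1758 at 2 h (-1.22 ± 0.29, adjusted p = 0.0379). Cdh11, a cadherin of connective tissue cells, had 266, 267 and 472 at 8 h, against 727, 691 and 764 at 2 h (-1.17 ± 0.28, adjusted p = 0.0379). In both of these genes 8 h replicate 3 was the highest of its group. Clec11a, a secreted growth factor for blood and bone precursors, had 1206, 1088 and 1387 at 8 h, against 2432, 2019 and 2022 at 2 h (-0.82 ± 0.15, adjusted p = 0.00825). Jarid2, a cofactor of the Polycomb repressive complex, fell by 0.62 ± 0.13 (adjusted p = 0.0167), and Hipk2, a nuclear kinase, by 0.84 ± 0.21 (adjusted p = 0.0427). Fkbp7, a prolyl isomerase of the endoplasmic reticulum, fell by 0.79 ± 0.16 (adjusted p = 0.0129), and the LIM domain genes Csrp2 and Pdlim3 by 0.78 ± 0.17 (adjusted p = 0.0181) and 0.77 ± 0.17 (adjusted p = 0.0218). Pola1, the catalytic subunit of DNA polymerase alpha, had 332, 368 and 517 at 8 h, against 676, 609 and 623 at 2 h (-0.67 ± 0.17, adjusted p = 0.0445). It was the 1 call among 24 tested cell cycle genes (4.17% beside 0.686% of all genes that fell). The median of those 24 was -0.09, and 8 of them had all 8 h arrays below all 2 h arrays, beside 12.5% of all genes. Clec11a passed in 5 of the 6 fits that left out 1 array, Jarid2 and Fkbp7 in 3, Car3 in 2, and Ect2, Cdh11, Hipk2, Csrp2, Pdlim3 and Pola1 in 1.

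Matrix genes gave no call. Of 39 tested extracellular matrix genes 0 passed in limma, 26 had a negative difference, beside 2759 of all 5396 genes, and 11 had an unadjusted p under 0.05, beside 909 of all genes. The median was -0.13. Of those 11 genes 10 were lower at 8 h. All 8 h arrays lay below all 2 h arrays in 8 of the 39 and above them in 3, beside 12.5% and 10.8% of all genes. The summed signal of the matrix list was 142154 to 173278 at 8 h and 178211 to 231279 at 2 h, which did not overlap. Tnc, the matrix glycoprotein tenascin C, had 721, 594 and 807 at 8 h, against 1371, 1037 and 1375 at 2 h (-0.83 ± 0.27, adjusted p = 0.107), and Col5a2, a fibrillar collagen, had 5021, 3416 and 4370 at 8 h, against 9717, 5571 and 6764 at 2 h (-0.76 ± 0.22, adjusted p = 0.073). Bone and cartilage genes, which can enter a dissection with the turbinate, had a median of -0.51 over 10 genes with 0 calls and 3 with an unadjusted p under 0.05. Their summed signal was 25591 to 35054 at 8 h and 28304 to 49484 at 2 h, and the part of dissection in the lower matrix values was not tested. Fap, a serine protease of fibroblasts, was singled out after its values were seen and fell by 0.55 ± 0.14 (adjusted p = 0.0445).

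Several genes that fell encode mitochondrial proteins, a grouping made after their values were seen and with no share over all genes to set it against. Coa6, an assembly factor of cytochrome c oxidase, had 1228, 1234 and 1130 at 8 h, against 2334, 2046 and 2118 at 2 h, with a wide gap and no array apart from its group. It fell by 0.85 ± 0.14 (adjusted p = 0.00425) and passed in all 6 fits that left out 1 array. Singled out after their values were seen were the respiratory chain subunits Ndufa6 (-0.58 ± 0.10, adjusted p = 0.00809), Ndufa3 (-0.45 ± 0.10, adjusted p = 0.0237), Cox7b (-0.46 ± 0.10, adjusted p = 0.0218) and Uqcrh (-0.37 ± 0.09, adjusted p = 0.0313). The copper carrier Cox17 (-0.38 ± 0.10, adjusted p = 0.0454), the ATP synthase inhibitor Atpif1 (-0.38 ± 0.09, adjusted p = 0.0454) and the import chaperone Timm8b (-0.48 ± 0.10, adjusted p = 0.0202) fell as well. So did the mitochondrial ribosomal proteins Mrps21 (-0.47 ± 0.10, adjusted p = 0.0151) and Mrpl20 (-0.34 ± 0.09, adjusted p = 0.0472). Of these 9 genes Ndufa6 passed in 5 of the 6 fits leaving out 1 array, Cox7b, Timm8b and Mrps21 in 2, Ndufa3, Uqcrh, Cox17 and Mrpl20 in 1 and Atpif1 in 0. Ndufa6 had 2386, 2904 and 2370 at 8 h, against 3776, 3861 and 3763 at 2 h, so that all 8 h arrays were lower. Aifm1, a mitochondrial flavoprotein, also singled out after its values were seen, rose by 0.49 ± 0.10 (adjusted p = 0.0129). In the oxidative phosphorylation list, which holds none of these 9 genes or Coa6, 0 of 27 tested genes passed in limma and 11 had an unadjusted p under 0.05, all of them lower. Over all 5396 genes 909 had such a p, 456 of them lower. Of the 27, 22 had a negative difference and 15 had all 8 h arrays below all 2 h arrays, beside 12.5% of all genes, and the median was -0.19. The summed signal of the list was 216417 to 228581 at 8 h and 244276 to 253400 at 2 h, which did not overlap. Ndufs4, its member with the lowest difference, had 828, 824 and 980 at 8 h, against 1251, 1182 and 1236 at 2 h (-0.48 ± 0.13, adjusted p = 0.0704). Coa6 averaged 1463 ± 145, 2166 ± 150, 1197 ± 58.5, 1437 ± 157 and 1045 ± 191 at 0, 2, 8, 16 and 48 h, and Ndufa6 2435 ± 194, 3800 ± 53, 2553 ± 304, 2761 ± 27.3 and 2958 ± 168, so that 2 h was the high time in both.

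Proteasome subunits gave no call on their brightest probe sets. Of 27 tested subunits 0 passed in limma and 3 had an unadjusted p under 0.05, beside 909 of all 5396 genes. A positive difference was found in 20, and the median was 0.09. All 8 h arrays lay above all 2 h arrays in 10 of the 27 and below them in 2, beside 10.8% and 12.5% of all genes. The summed signal of the list was 215612 to 226094 at 8 h and 205294 to 208162 at 2 h, which did not overlap. Psmd11, a subunit of the regulatory particle, rose on a probe set singled out after its values were seen, with 3391, 4560 and 3023 at 8 h, against 2059, 2176 and 2006 at 2 h (0.79 ± 0.15, adjusted p = 0.00845). Its brighter probe set gave 0.36 ± 0.10 (adjusted p = 0.0822) and another, dim one 0.19 ± 0.30 (adjusted p = 0.818). Sem1, a small acidic proteasome subunit also singled out after its values were seen, went the other way, with 10263, 9932 and 10722 at 8 h, against 13834, 15345 and 13932 at 2 h (-0.48 ± 0.08, adjusted p = 0.00476).

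**Figure D4:**
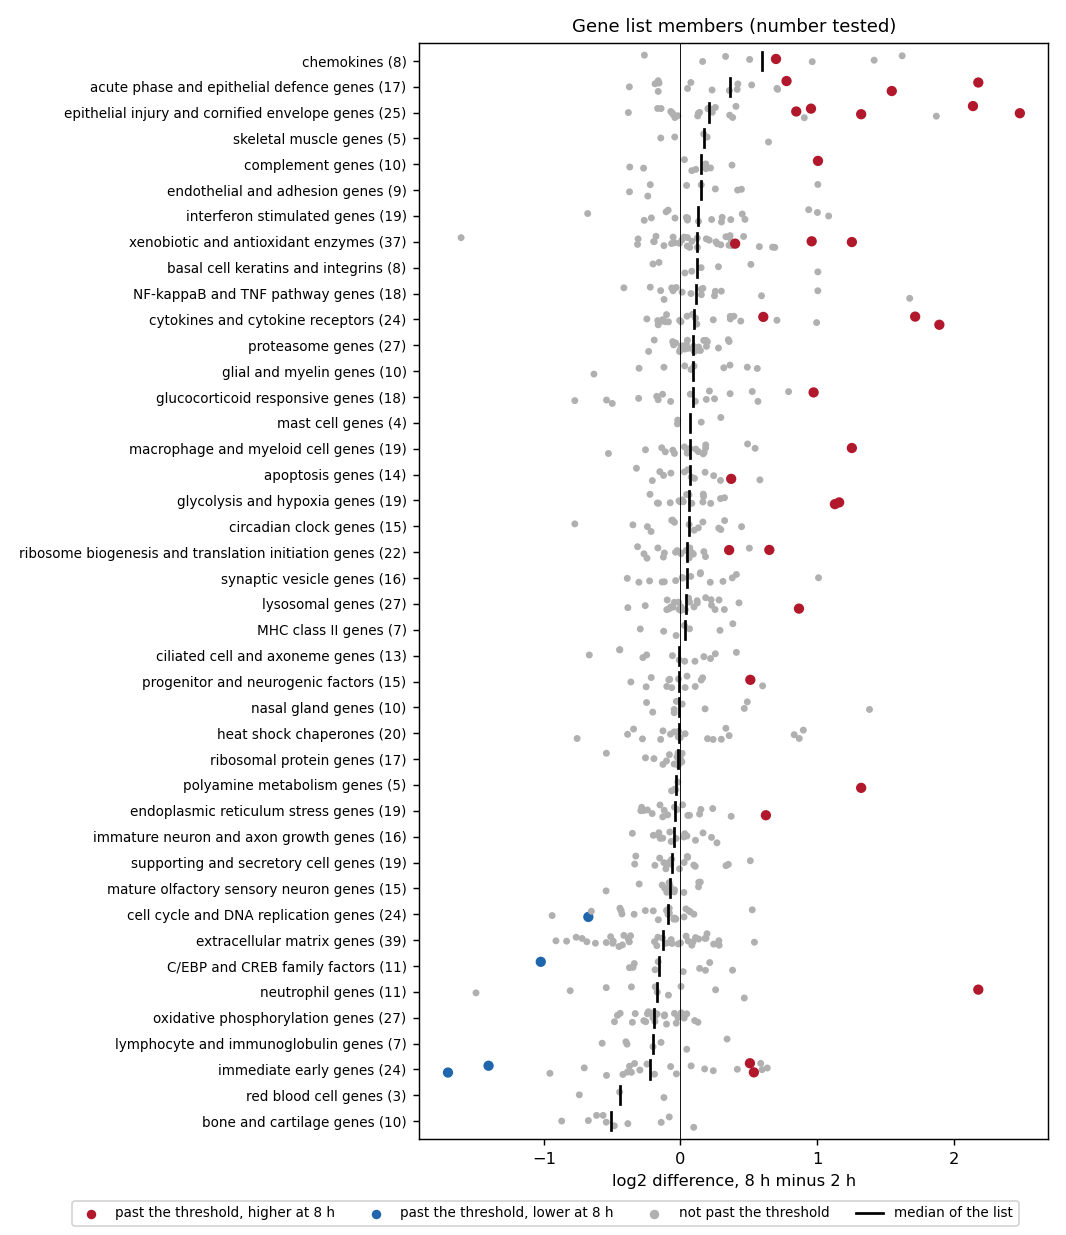
Each row is 1 of 42 gene lists with the number of its genes tested in brackets, and each point is a gene's log2 difference, 8 h minus 2 h (horizontal axis), on its brightest probe set; red points rose, blue points fell, grey points did not pass, and black bars are list medians. Red points lie in 17 rows and blue points in 3, and the medians run from 0.60 for 8 chemokines to -0.51 for 10 bone and cartilage genes.

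Across all 42 lists 31 of 633 listed genes passed, 27 higher and 4 lower at 8 h, beside 1.58% of all 5396 genes in either direction. Rises were found in 17 lists, falls in 3 and neither in 23. The counts at an unadjusted limma p under 0.05 below stand beside 909 of all 5396 genes. Of 15 genes of mature sensory neurons 0 passed (1 at an unadjusted p under 0.05), with a median of -0.08, and Omp differed by 0.03 ± 0.11 (adjusted p = 0.941). Among 16 genes of immature neurons and axon growth 0 passed (1 at an unadjusted p under 0.05), and Gap43, a growth cone protein, had 6249, 8266 and 9183 at 8 h, against 8474, 8149 and 9532 at 2 h (-0.16 ± 0.22, adjusted p = 0.779). The 19 supporting cell genes gave 0 calls (3 at an unadjusted p under 0.05), and Krt8, a keratin of simple epithelia, had 16607, 15104 and 12035 at 8 h, against 10132, 10724 and 9596 at 2 h (0.51 ± 0.14, adjusted p = 0.0609). Without 8 h replicate 3 Krt8 passed (adjusted p = 0.016). The 3 red blood cell genes gave 0 calls (2 at an unadjusted p under 0.05), with a summed signal of 30609 to 38455 at 8 h and 41998 to 54639 at 2 h. Calb1, a calcium-binding protein of neurons, had 387, 599 and 1653 at 8 h, against 1194, 1597 and 1188 at 2 h, and did not pass (-0.85 ± 0.32, adjusted p = 0.173).

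The calls of some heat shock and interferon genes depended on 8 h replicate 3. Hspa1a and Hspa1b, the nearly identical inducible HSP70 genes whose probe sets may share signal, had 10849, 6812 and 2050, and 13118, 6904 and 2450, at 8 h. At 2 h they had 1799, 2487 and 5559, and 2137, 2997 and 5338. The groups overlapped, with 8 h replicate 3 low and 2 h replicate 3 high, and the differences of 0.87 ± 0.46 (adjusted p = 0.344) and 0.90 ± 0.43 (adjusted p = 0.289) did not pass. Without 8 h replicate 3 they were 1.56 (adjusted p = 0.0395) and 1.55 (adjusted p = 0.0274). Among 19 tested interferon stimulated genes 0 passed with all arrays in limma. Of the 19, 7 had an unadjusted p under 0.05, 6 of them higher at 8 h, beside 909 of all 5396 genes. All 8 h arrays lay above all 2 h arrays in 6 and below them in 1, beside 10.8% and 12.5% of all genes. Without 8 h replicate 3, 3 interferon genes passed, namely Gbp2, Ifi47 and Iigp1. Ifi47, an interferon-induced GTPase, had 709, 535 and 399 at 8 h, against 253, 236 and 266 at 2 h (1.08 ± 0.29, adjusted p = 0.0599), and Iigp1, another of them, had 1281, 1033 and 693 at 8 h, against 458, 393 and 635 at 2 h (adjusted p = 0.0621). In both genes all 8 h arrays were above all 2 h arrays.

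The SR-A mutant arrays at 8 h and 0 h share no array with these 6, though they share the pooled spread and have another start time. In that comparison 119 probe sets rose (1.71%) and 58 fell (0.832%). Of the 63 rises at 8 h against 2 h in wild type, 36 (57.1%) also rose in the mutant comparison, where they made up 30.3% of the 119, and 57 had the same sign, beside 50.7% positive over all probe sets tested. Of the 42 falls 9 (21.4%) also fell, making up 15.5% of the 58, and 39 had the same sign, beside 49.3% negative. Sprr1a differed by 3.67 ± 0.51 (adjusted p = 0.000357), Lcn2 by 3.00 ± 0.28 (adjusted p = 3.07e-06), Slpi by 2.46 ± 0.29 (adjusted p = 3.24e-05) and Osmr by 1.88 ± 0.31 (adjusted p = 0.00189) in the mutant at 8 h against 0 h. Nr4a1 differed by -2.50 ± 0.41 (adjusted p = 0.00189) and Fos by -1.72 ± 0.35 (adjusted p = 0.00811), while Hmox1, at 0.62 ± 0.26 (adjusted p = 0.228), and Coa6, at -0.30 ± 0.14 (adjusted p = 0.274), did not pass there.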

How the data were processed

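Expression was measured on 30 Affymetrix arrays, 3 per genotype and time. The authors deposited linear MAS5 signal intensity values, 1 per probe set and array, with MAS5 named in the submitters' processing notes and its version not given. Trimmed means, leaving 2% off each end, ran from 1500.7 to 1500.9 across arrays, so the values had been scaled to a common level. Precision is limited by the number of arrays.

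Of 12488 probe sets 66 array controls were left out. Signals below 113.7, the 25th percentile of the pooled signals, were set to that floor before log2. Testing required a signal above the pooled median of 572 on 3 or more of the 30 arrays; 6968 probe sets met this and 5454 did not. The platform annotation gave 1 gene for 10833 probe sets, several for 396 and none for 1193. Of the 1-gene ones 10817 were matched by gene identifier to the RefSeq table of GRCm38.p6. Of the tested probe sets 6320 had 1 gene and stood for 5396 genes, each taken at its brightest probe set in gene counts. The files name no genome build, so only promoters carry coordinates.

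Means of 9 groups (27 arrays, 18 residual degrees of freedom) were fitted with limma 3.58.1 under R 4.3.3, with two-sided moderated tests and Benjamini-Hochberg adjustment over the tested probe sets. The comparison, its gene lists and the choice to leave out the mutant 2 h arrays were made with earlier results of these data known. Named were the 15 largest rises and falls with 1 gene whose arrays did not overlap, up to 4 called members of each list, for lists without a call up to 2 members whose arrays did not overlap, and a set of named genes (Omp, Gap43, Cd68, Fos, Egr1, Nr4a1, Hspa1a, Hspa1b, Lcn2, Slpi, Ccl2, Calb1, Per1, Dbp, Fkbp5, Srxn1, Odf2, Gapdh and Msr1). Other called genes are marked in the text as singled out after their values were seen. Some uncalled members of lists with a call are named without that mark. Among them are Sprr2f, Krt6a, S100a8, S100a9, Ngp, Il6, Socs3, Cxcl1, Cxcl2, Gclm, Gclc and Cyp1a1, together with Ltf and Chil3. They lie outside the rule and were likewise named with their values known. Promoters were searched on both strands for the E-box CACGTG, the cyclic AMP element TGACGTCA, the AP-1 site TGAGTCA, the C/EBP site TTGCGCAA and the heat shock unit GAANNTTC. In a simulation of 8 h against 2 h over 6968 probe sets, the fit found 89% of 100 that were changed 2-fold, 98% of 100 changed 4-fold, and 5 that were unchanged. The simulated noise was drawn independently for each array and probe set. It holds no shift shared by the probe sets of an array, so these shares do not measure what the fit finds in the real arrays.

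Replicate numbers are in the labels, but same-numbered 8 h and 2 h arrays did not deviate together (correlations of -0.06, -0.13 and -0.02), so no block was used. Alternatives were other filters, floors and normalization, other sets of arrays, robust moderation with a variance trend, a replicate block, and each array left out. Summaries came from pandas 2.3.3, numpy 2.4.6 and scipy 1.17.1 under Python 3.11.15, and plots from matplotlib 3.10.9.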

Additional observations from a re-analysis of the deposited data

How the results depend on the processing

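Against 105 calls, 25 probe sets passed when the spread came from the 15 wild type arrays and 2 when it came from the 6 arrays alone, with 23 and 1 of them among the 105. In the 6-array fit 1129 probe sets had an unadjusted p under 0.05. Against 31 called list members, 7 and 2 were called in those fits, and Sprr2f, 1 of the 2, is not among the 31. Leaving out 1 array gave 10 to 188 called probe sets and 4 to 46 called list members. Other settings stayed within 1.5 times of the 105: 83 without the filter, 114 with the filter over the 6 arrays, 106 with a pseudocount of 16, 107 with the floor at the 10th percentile, 112 after quantile normalization, 75 with all 30 arrays and 123 with robust moderation. A fit with a replicate block called 82 probe sets, 79 of them among the 105, and 24 list members. The numbers do not pair the arrays. Fos and Nr4a1 passed neither in the block fit nor in the fit without the filter. All 105 called probe sets kept their direction with other floors, with quantile normalization and with each array left out. Other sets of arrays for the spread, robust moderation and the block leave each difference as it was. Leaving out 1 array cannot turn the sign where the 8 h and 2 h arrays do not overlap. That held for 62 of the 63 rises and all 42 falls, so their kept direction was largely set in advance. Among the genes named by the rule and the other called genes, 4 changed sign, none of which had passed the threshold: with 1 array left out Omp ran from -0.07 to 0.11, Gap43 from -0.28 to 0.00, Cd68 from -0.05 to 0.18 and Dbp from -0.62 to 0.10. The first 3 turned without 8 h replicate 1 and Dbp without 2 h replicate 2. Uncalled genes that the text names outside the rule were not counted here. Without 8 h replicate 1 the neutrophil list went from 4 positive differences to 2, with Lcn2 still positive, so Ltf or Chil3 or both turned as well. The cause of these differences was not tested.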

Other observations

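Odf2, an outer dense fibre protein that is also a centrosome component, had signals of 872, 1845 and 787 at 8 h, against 1091, 1385 and 1485 at 2 h, and did not pass (-0.27 ± 0.22, adjusted p = 0.562). Its wild type 0 h mean was 2874 ± 199 (SD, n = 3). Dbp, a transcription factor with a daily rhythm, had 602, 433 and 414 at 8 h, against 334, 904 and 591 at 2 h (-0.24 ± 0.31, adjusted p = 0.75). Rab3a, a small GTPase of synaptic vesicles, had 1313, 1267 and 1209 at 8 h, against 595, 526 and 786 at 2 h, with no overlap and no call (1.01 ± 0.28, adjusted p = 0.073). The E-box CACGTG was in 5 of 41 promoters of genes that rose (12.2%), 3 of 29 of genes that fell (10.3%) and 475 of 4369 of all genes tested (10.9%). The heat shock motif GAANNTTC was in 3 of 41 (7.32%), 4 of 29 (13.8%) and 261 of 4369 (5.97%), and the C/EBP motif TTGCGCAA in 0 of 41, 0 of 29 and 13 of 4369 (0.298%).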
